A study of Mus musculus with 6 samples.

Results

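The Sox genes encode transcription factors that share a DNA-binding HMG box. Here 10 of them (Sox1, Sox2, Sox3, Sox4, Sox5, Sox6, Sox8, Sox9, Sox11 and Sox12) were followed in the optic fissure of mouse embryos in which the FGF receptor genes Fgfr1 and Fgfr2 were targeted in the eye field. The optic fissure is the groove along the ventral side of the optic cup and stalk, which closes as the eye forms. Members were taken as every probe set that the platform annotation assigns to 1 of these symbols alone. This gave 37 probe sets for the 10 genes, of 34945 single-symbol probe sets for 18193 genes on the array.

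The FGFR mutant group was Six3Cre+;Fgfr1fx/fx;Fgfr2fx/fx, and the control group was Six3Cre-;Fgfr1fx/fx;Fgfr2fx/fx, so that both carried the floxed receptor alleles and differed in the Cre transgene. All embryos were of strain C57BL/6J at E11.5. Six3Cre acts in the early eye field and ventral forebrain, so mesenchyme, vessels and blood cells near the fissure keep their receptors. Each group had 3 arrays of laser-microdissected tissue, named 8711, 9216 and 9266 in either group. The labels do not say whether an array stands for 1 embryo or a pool, or whether the arrays of a group came from separate embryos, and p-values therefore speak only of how far these 6 arrays scatter, in part perhaps for technical reasons.

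Sox factors are grouped by sequence. The SoxB1 genes Sox1, Sox2 and Sox3 maintain neural progenitors, and loss of SOX2 causes severe eye malformations in humans. The SoxC genes Sox4, Sox11 and Sox12 act in progenitors and in young neurons, and loss of Sox4 and Sox11 in the mouse optic cup disturbs ganglion cell formation. The SoxD factors Sox5 and Sox6 lack a known transactivation domain and often work beside SoxE factors, of which Sox8 and Sox9 are measured here and act in cartilage, glia, pigment epithelium and retinal progenitors.

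Upstream regions are shown for Sox2, Sox11 and Sox6, the members on which the results below turn. Each is the 250 bases before a RefSeq gene start in GRCm38.p6, and capitals mark ACAAAG or ACAATG, which are forms of the core that Sox proteins bind, searched on both strands. These 2 motifs and CCGGAAG, a core bound by ETS factors, do not overlap each other in the regions shown.
Sox2, chr3:34649745-34649994, plus strand: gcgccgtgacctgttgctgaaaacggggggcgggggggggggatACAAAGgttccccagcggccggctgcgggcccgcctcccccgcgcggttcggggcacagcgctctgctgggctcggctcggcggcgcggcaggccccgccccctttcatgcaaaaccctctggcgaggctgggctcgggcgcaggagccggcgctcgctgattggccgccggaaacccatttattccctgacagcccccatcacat
Sox11, chr12:27342719-27342968, minus strand: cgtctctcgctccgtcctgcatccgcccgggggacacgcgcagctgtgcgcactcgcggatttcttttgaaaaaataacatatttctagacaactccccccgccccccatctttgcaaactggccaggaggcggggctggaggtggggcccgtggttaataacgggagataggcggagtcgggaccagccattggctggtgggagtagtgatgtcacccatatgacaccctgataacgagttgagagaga
Sox6, the first of 6 starts in the table, chr7:116038745-116038994, minus strand: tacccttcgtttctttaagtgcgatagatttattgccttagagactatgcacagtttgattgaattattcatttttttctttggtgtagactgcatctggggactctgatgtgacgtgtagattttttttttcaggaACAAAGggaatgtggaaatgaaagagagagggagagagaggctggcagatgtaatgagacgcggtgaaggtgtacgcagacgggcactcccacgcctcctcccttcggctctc
Sox2 and this Sox6 start each held 1 ACAAAG, and Sox11 held none of the motifs searched. Of the 32851 upstream regions in the table, 16.5% held ACAAAG, 10.7% held ACAATG and 6.91% held CCGGAAG. Upstream regions were listed for 8 of the 10 members, 13 in all, of which 6 held ACAAAG, 3 held ACAATG and 0 held CCGGAAG. Of these, 5 with ACAAAG and 2 with ACAATG were starts of Sox6, so that by gene 2 of 8 held ACAAAG and 2 of 8 held ACAATG. A match describes these letters only and is not evidence of binding.

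One array stood apart. In mutant 8711 the ratio of 3 prime to 5 prime signal of the Gapdh control was 93.6, where the other 5 arrays had 4.26 to 15.0, and the median intensity was 18.1, where the others had 28.7 to 34.6. For the targeted gene Fgfr1 the probe set with the highest mean read 59.9, 64.1 and 141 in the mutants, against 247, 89.8 and 238 in the controls, with overlap and a log2 difference of -1.08 (adjusted p 0.852). That of Fgfr2 read 869.9, 928 and 1316 in the mutants, against 351, 314 and 474 in the controls, without overlap and with a difference of 1.44 (adjusted p 0.410). Where these probes lie relative to the floxed exons was not analysed here, so they do not check the genotypes.

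Of the 37 member probe sets, 24 passed the filter on low values (a mean log2 value of 4.07, which is a linear intensity of 15.1), and these stood for 9 of the 10 genes. In the mutants 18 of the 24 (75%) read lower and 6 higher, where 54.5% of all 27022 probe sets tested read lower. Of the 18, 6 were probe sets of Sox11 and 4 of Sox4. The median log2 difference (mutant minus control) was -0.68 over the 24, against -0.05 over all 27022. Over all 37 members with no filter, 23 read lower and 14 higher, where 22386 of all 45037 read lower and 22651 higher. The median was -0.32 over the 37, against 0.0031 over all 45037. In limma with Benjamini-Hochberg adjustment 0 member probe sets passed an adjusted p of 0.05, and 0% of all probe sets tested did. At an unadjusted limma p under 0.05, 3 members were lower and 2 higher, where 2.55% of all probe sets tested were lower and 3.02% higher. The lower count was 1 without control 9216 and 0 without control 9266, and the higher count stayed at 2. The 3 mutant and 3 control values did not overlap for 6 lower and 2 higher members, where this held for 6.39% of all probe sets tested in the lower and 7.08% in the higher direction. Member probe sets are not independent, since several read the same transcript.

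Mutant 8711 was the lowest of the 6 arrays for 14 of the 24 members tested (58.3%), and for 38.4% of all probe sets tested. Without it Sox6 1426018_a_at fell under the filter. The median over the tested members that still passed was then -0.31, against 0.03 over all probe sets tested that still passed. Over all 37 members with no filter the median without mutant 8711 was 0.01, against 0.08 over all 45037. The part of RNA quality in the member values was not tested, and differences of members are given with and without this array where it moved them by over 1.5 times. Without mutant 8711, Xist differed between the groups by -6.84 log2 units. A part of sex cannot be told apart from that of genotype in the differences without that array.

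**Figure D1:**
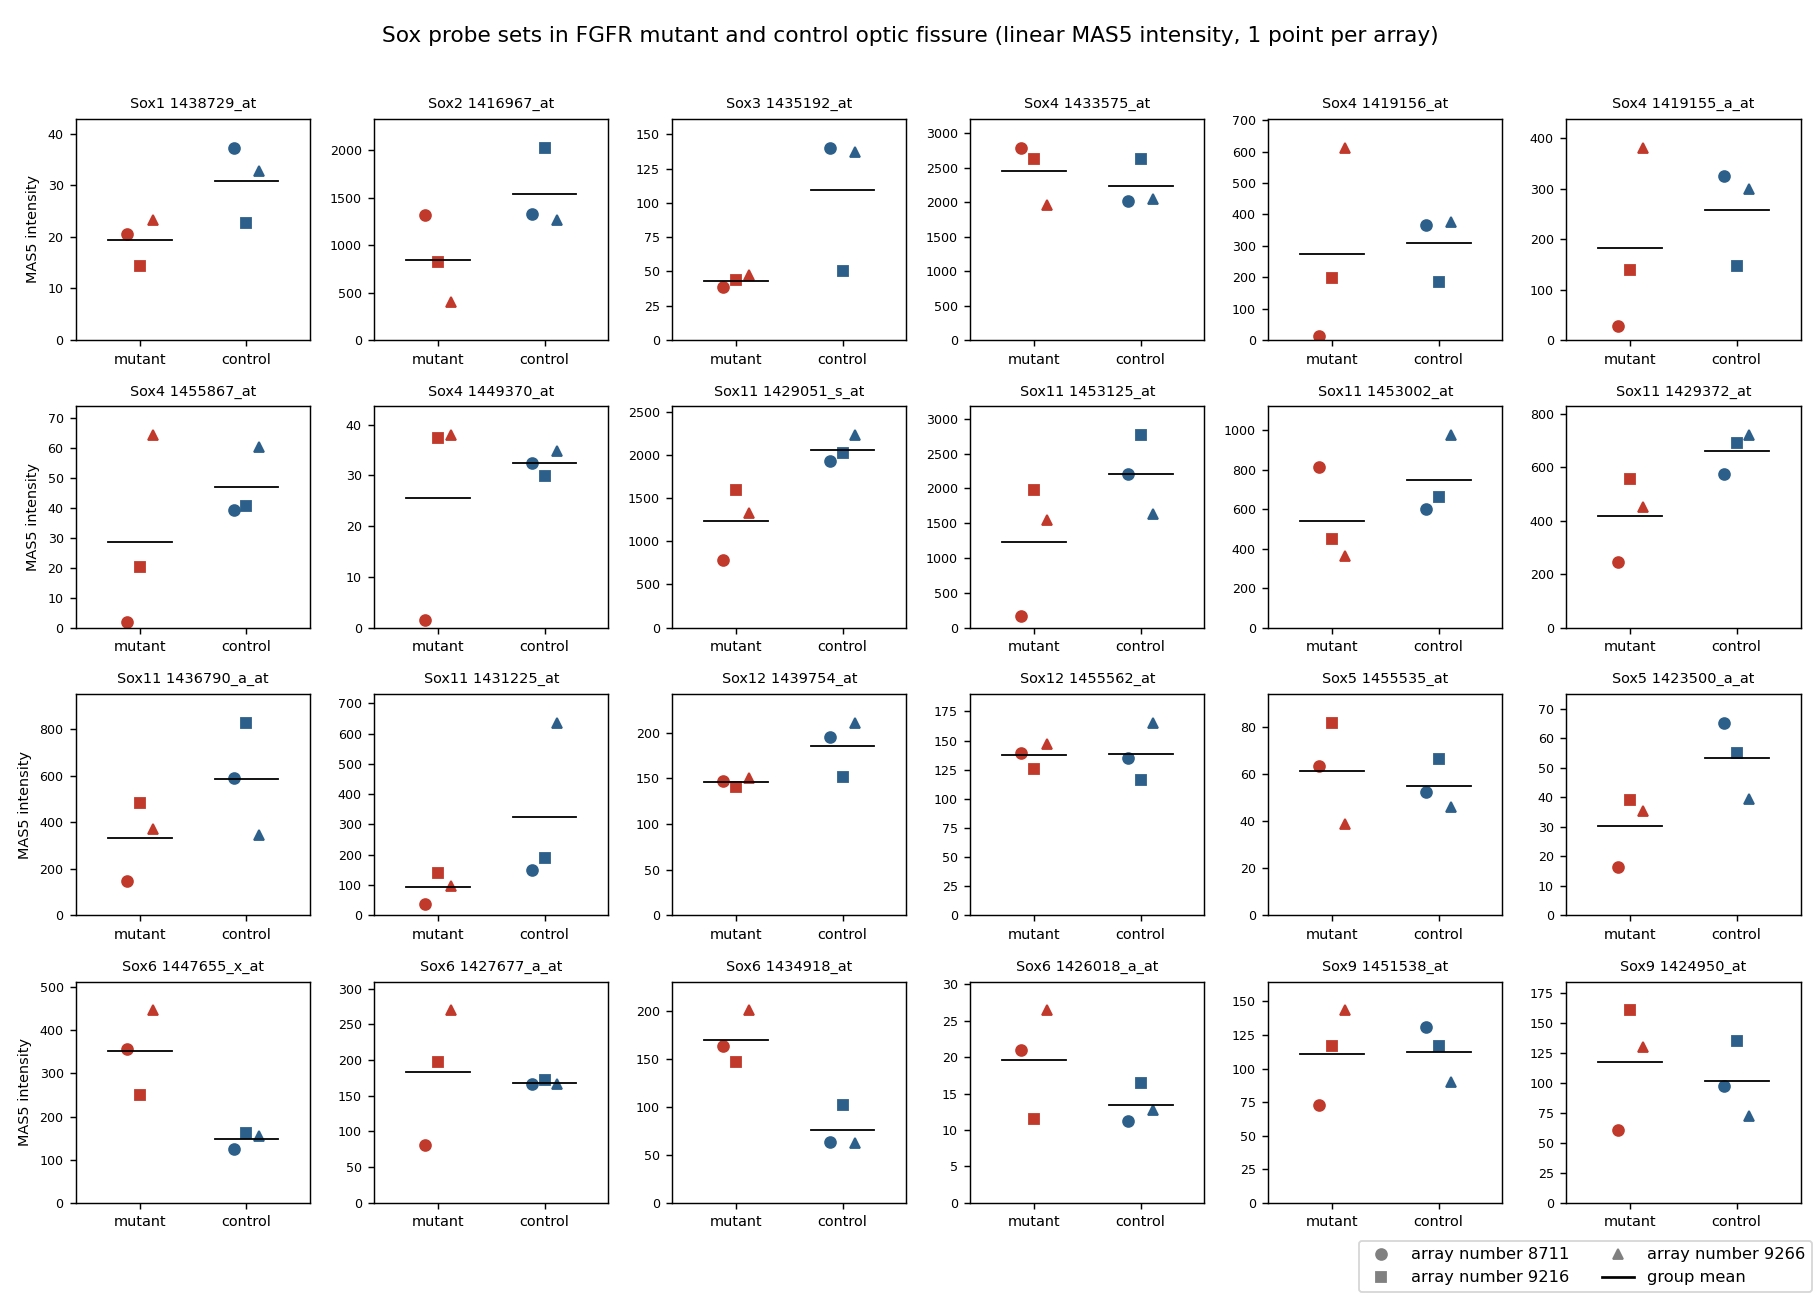
Linear MAS5 intensity of each of the 24 Sox probe sets that passed the filter, 1 point per array, with FGFR mutant arrays (red) left of control arrays (blue), the shape giving the array number and the bar the group mean. The mutant points lie below the control points for Sox3 and for 3 Sox11 probe sets, and above them for 2 Sox6 probe sets, while mutant 8711 lies below the other 5 arrays for 4 Sox4 probe sets.

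Among the SoxB1 genes, Sox2 read lower in the mutants on average, but by very different amounts in the 3 mutant arrays. Its single probe set (1416967_at) had intensities of 1312, 820.5 and 402 in mutant arrays 8711, 9216 and 9266, against 1329.8, 2028 and 1267 in control arrays 8711, 9216 and 9266. Mutant 8711 lay among the controls and the other mutant arrays below all of them, so the groups overlapped. The means were 845 ± 456 in the mutants and 1542 ± 423 in the controls (SD, n = 3 each), a log2 difference of -0.99 with a 95% interval of -2.05 to 0.06 and a limma adjusted p of 0.852. Without mutant 8711 the difference was -1.39 (SE 0.34, adjusted p 0.262), and without mutant 9266, where Sox2 was lowest, it was -0.54.

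Sox3, which acts in the hypothalamus and pituitary as well as in neural progenitors, was low in all mutant arrays. Probe set 1435192_at read 38.7, 43.6 and 47.3 in mutants 8711, 9216 and 9266, against 140.4, 50.4 and 137.5 in controls 8711, 9216 and 9266. All mutant values lay below all control values, but control 9216 was close to the mutants, and the spread among controls (SD 51.1) was far wider than among mutants (SD 4.31). The log2 difference was -1.17 (95% interval -2.23 to -0.12, limma unadjusted p 0.0336, adjusted p 0.852), and it ran from -1.65 to -0.93 with 1 array left out. The second Sox3 probe set was under the filter, at 1.6 to 14.2 over the 6 arrays.

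Sox1, a neural progenitor and lens fibre factor, was close to the filter level. Probe set 1438729_at had 20.5, 14.4 and 23.3 in the mutants and 37.3, 22.6 and 32.8 in the controls, with 1 mutant value just above the lowest control. The log2 difference was -0.62 (95% interval -1.48 to 0.23, adjusted p 0.852). The other Sox1 probe set read 0.5 to 3.5. For all 3 SoxB1 genes the mutant mean was the lower one, and none of the 3 passed adjustment over the array.

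In the SoxC group all 6 probe sets of Sox11 read lower in the mutants, with log2 differences from -1.67 to -0.52. Probe set 1429051_s_at had 786, 1599 and 1327 in mutants 8711, 9216 and 9266, against 1929, 2022 and 2231 in the controls. No mutant value reached the controls, and the means were 1237 ± 414 and 2061 ± 155 in mutants and controls (SD, n = 3 each). The log2 difference was -0.79 (SE 0.27, limma unadjusted p 0.0234, adjusted p 0.819), and it was -0.50 (SE 0.16, adjusted p 0.432) without mutant 8711.

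The other Sox11 probe sets differed in which arrays stood apart. Probe set 1429372_at read 244, 556 and 453 in the mutants and 576, 690 and 719.7 in the controls, again without overlap, a difference of -0.74 (-0.39 without mutant 8711). For 1453125_at, which comes from the same source sequence, the values were 172, 1973 and 1544 in the mutants, against 2214, 2765 and 1639 in the controls. There mutant 8711 alone was far below the others and the difference was -1.42, or -0.31 without that array. Probe set 1453002_at shares its source with 1429051_s_at but ran the other way across mutants, at 814, 451 and 362, against 602, 662 and 976 in the controls. Its difference was -0.52, and -0.85 (SE 0.26, adjusted p 0.382) without mutant 8711, which lay among the controls. Probe set 1431225_at had 38.7, 140.1 and 97 in the mutants, against 148, 188 and 635 in the controls. No values overlapped and control 9266 stood far above the rest, with a difference of -1.67, or -1.03 without that control. The last probe set, 1436790_a_at, read 149, 483 and 369.9 in the mutants and 588.5, 827.5 and 343 in the controls, with overlap and a difference of -0.88 (-0.38 without mutant 8711).

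The readings of Sox4 depended on the probe set. The probe set with the highest mean, 1433575_at, read 2792, 2619 and 1962 in mutants 8711, 9216 and 9266, against 2013, 2619.8 and 2050.1 in the controls. The groups overlapped almost completely, with a log2 difference of 0.14 (95% interval -0.33 to 0.60, adjusted p 0.885). The other 4 tested probe sets had differences from -1.47 to -0.998 on 6 arrays, all with mutant 8711 as the lowest array. In 1419156_at the mutant values were 11.2, 197 and 613, against 368, 185 and 376 in the controls, and in 1449370_at they were 1.5, 37.3 and 37.9, against 32.5, 29.9 and 34.7. Relative to the control mean, mutant 8711 lay between -4.52 and -3.06 on the log2 scale for these 4, and at 0.34 for 1433575_at. Without that array the 4 differences ran from -0.32 to 0.24, and that of 1433575_at was 0.04. Of the 4, 3 share 1 source sequence in the platform annotation with a probe set under the filter. The places of these probe sets along the transcript were not analysed here.

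Sox12, the third SoxC gene, had differences nearer 0. Probe set 1455562_at read 139, 125 and 147 in the mutants, against 135, 116 and 165 in the controls, with a difference of -0.0021 (95% interval -0.59 to 0.58) that was -0.015 without mutant 8711 and just above 0 under quantile normalization and median centring. Probe set 1439754_at had 148, 140.5 and 151 in the mutants and 195.5, 152 and 211 in the controls. These did not overlap, but the gap between mutant 9266 and control 9216 was less than 1 unit of intensity, and the difference was -0.33 (95% interval -0.88 to 0.22, adjusted p 0.852). The third probe set was near 0, at 0.7 to 2.4.

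**Figure D2:**
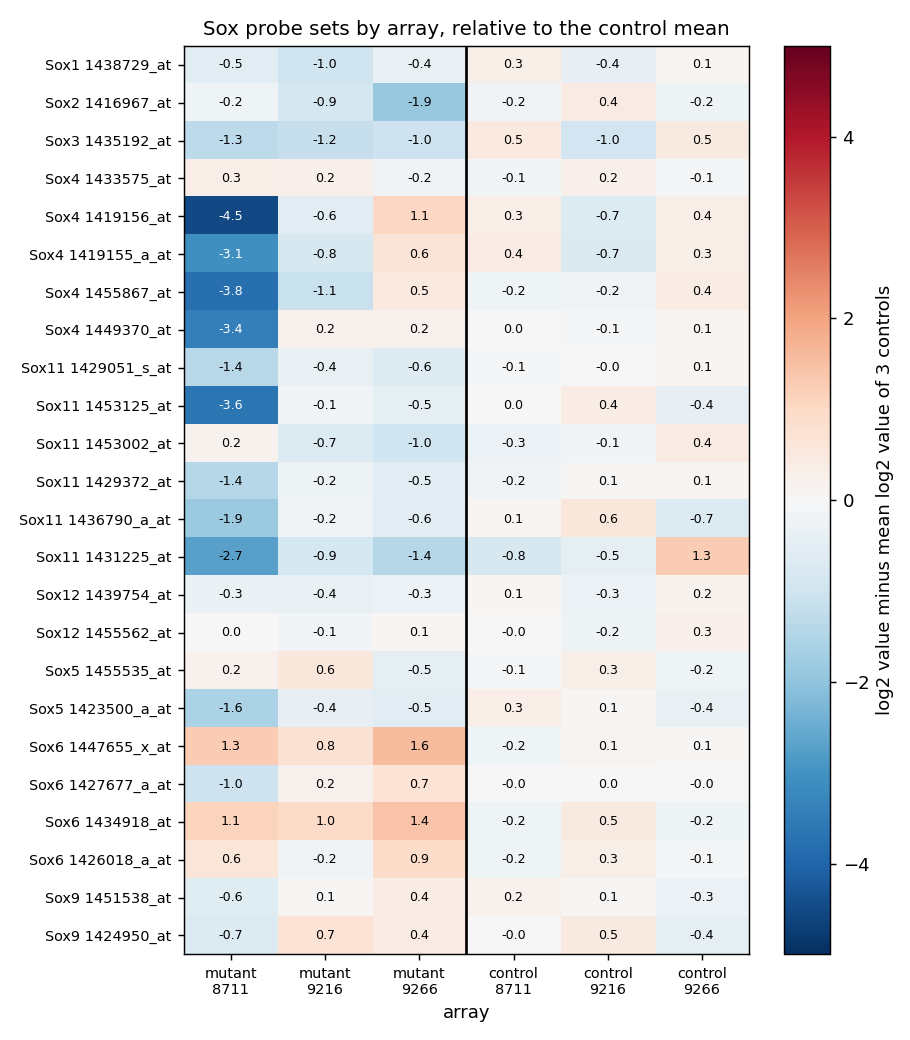
Log2 value of each tested Sox probe set (rows) in each array (columns, FGFR mutants left of controls) minus the mean log2 value of the 3 controls, in colour and as a number. Mutant 8711 is far below the controls for 4 Sox4 probe sets (-4.52 to -3.06) and for Sox11 1453125_at (-3.64), while Sox6 1447655_x_at and 1434918_at are above the control mean in all 3 mutants.

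The SoxD gene Sox6 was the member with higher readings in the mutants that did not overlap the controls among probe sets past the filter, in 2 of its 4 probe sets. Sox6 is a repressor of embryonic globin genes in erythroid cells and a partner of Sox9 in cartilage. Probe set 1447655_x_at read 357, 251 and 446 in mutants 8711, 9216 and 9266, against 125, 162 and 154 in the controls. Each mutant array was above each control, with means of 351 ± 97.8 and 147 ± 19.5 in mutants and controls (SD, n = 3 each). The log2 difference was 1.22 (SE 0.28, 95% interval 0.56 to 1.88, limma unadjusted p 0.0034, adjusted p 0.530).

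A second Sox6 probe set, 1434918_at, had 163, 147 and 200.3 in the mutants, against 63.2, 102 and 62.2 in the controls. The groups again did not overlap, and the difference was 1.17 (SE 0.30, 95% interval 0.46 to 1.88, adjusted p 0.574). Both differences were kept without mutant 8711, at 1.19 (adjusted p 0.280) and 1.2 (adjusted p 0.305), and with 1 array left out they ran from 1.03 to 1.44 and from 1.05 to 1.40. The suffix of 1447655_x_at marks probes that can also bind other transcripts, and 1434918_at carries no such mark. These were the 2 members at an unadjusted p under 0.05 in the higher direction.

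The other Sox6 probe sets did not show a difference of that size. Probe set 1427677_a_at read 81.5, 198 and 269.6 in the mutants, against 166, 172.5 and 166 in the controls. Mutant 8711 lay below all controls and the other mutants above them, with a difference of -0.04 (SE 0.44, adjusted p 0.986) that lay above 0 under quantile normalization and median centring, and of 0.45 (SE 0.23, adjusted p 0.648) without mutant 8711. Probe set 1426018_a_at, near the filter level, had 21.0 and 26.4 in mutants 8711 and 9266, and in mutant 9216 a reading between the lowest 2 controls, against 11.2, 16.5 and 12.7 in the controls. The groups overlapped and the difference was 0.44.

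Sox5, the other SoxD gene, was dim: 5 of its 7 probe sets were under the filter, with values of 1.1 to 33.5. Of the other 2, 1423500_a_at read 16.5, 39.0 and 35.5 in the mutants, against 65.3, 55.0 and 39.5 in the controls. The groups just missed each other, and the difference of -0.84 was -0.47 without mutant 8711. Probe set 1455535_at read 63.2, 81.6 and 38.8 in the mutants, against 52.1, 66.4 and 46.1 in the controls, a difference of 0.11 with overlap (0.05 without mutant 8711). Neither passed adjustment (0.852 and 0.953).

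Sox9, the SoxE gene of pigment epithelium, retinal progenitors and periocular mesenchyme, did not separate the groups. Probe set 1451538_at read 72.6, 117 and 143 in the mutants, against 131, 117 and 89.9 in the controls, with a difference of -0.06 (95% interval -0.85 to 0.74) that was above 0 under quantile normalization and median centring. Probe set 1424950_at, from the same source sequence, read 61.1, 160.4 and 130.3 in the mutants, against 97.1, 135.0 and 72.4 in the controls, with a difference of 0.14 (95% interval -0.89 to 1.17). In both, mutant 8711 was the lowest of the 6 arrays, and without it the differences were 0.22 and 0.55 (adjusted p 0.865 and 0.688). The intervals still hold changes of more than 1 log2 unit for 1424950_at on the higher side, so the arrays do not show that Sox9 kept its level. The third Sox9 probe set was under the filter, at 2.2 to 27.3. Sox8, a relative of Sox9 in glia and testis, had 1 probe set with 1.1 to 7.3 and was not detectable at this signal level.

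**Figure D3:**
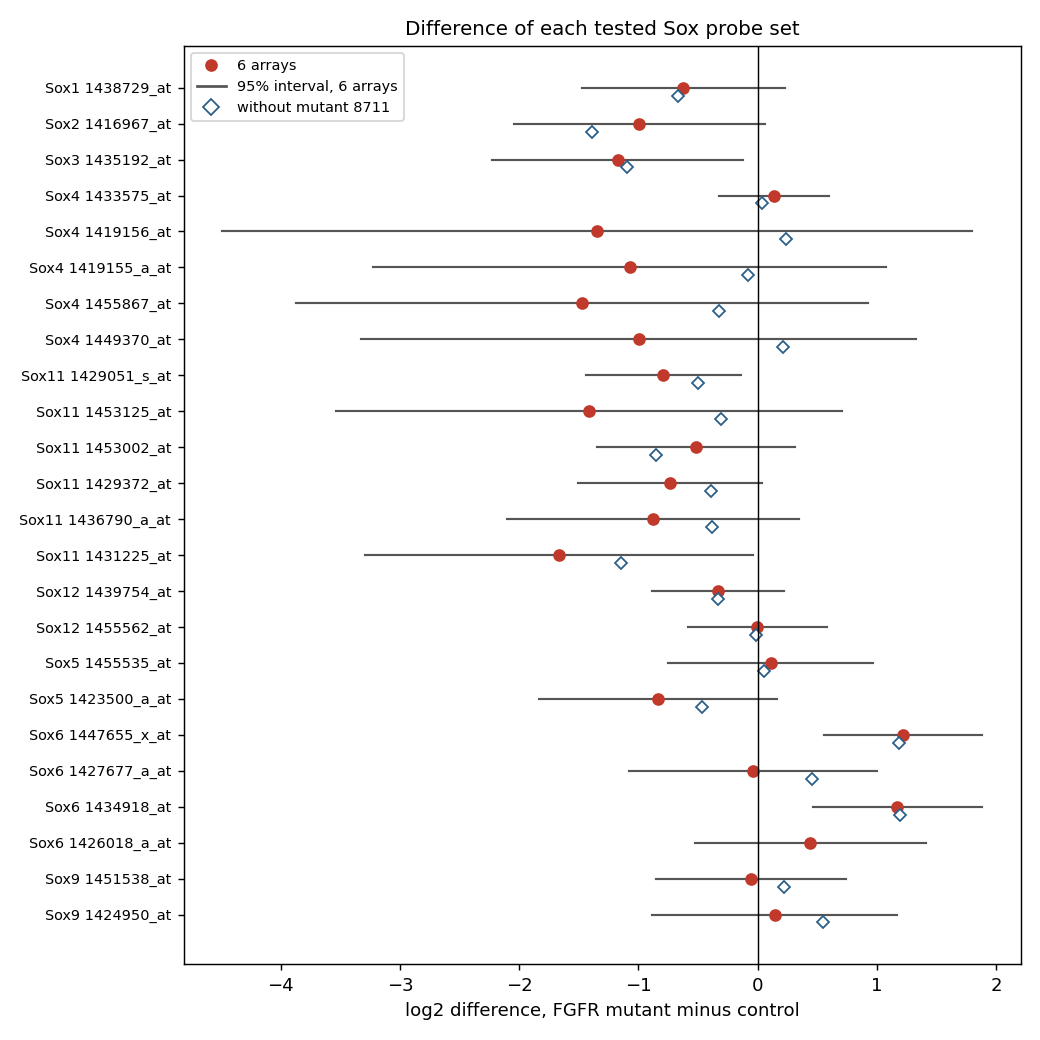
Log2 difference, FGFR mutant minus control, of each tested Sox probe set with all 6 arrays (red points), its 95% interval from limma (grey bars), and the same difference without mutant 8711 (open diamonds). The intervals of Sox3, of 2 Sox11 probe sets and of 2 Sox6 probe sets leave out 0 before adjustment, and the Sox4 diamonds lie between -0.32 and 0.24. Sox6 1426018_a_at has no diamond, since it fell under the filter without mutant 8711.

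Of 10 other Sox genes, 6 were tested, 3 higher and 3 lower, with a median of 0.02 against 0.03 over all 12282 genes tested. Sox17, an endoderm and endothelial factor, had 27.9, 28.3 and 30.3 in the mutants, against 27.1, 13.8 and 13.3 in the controls, without overlap and with a difference of 0.70 (adjusted p 0.852), within the range of sizes seen among members. Sox7, Sox10, Sox13, Sox18 and Sox21 had differences of 0.12, -0.03, 0.04, -0.0016 and -0.09. Sox14, Sox15, Sox30 and Sry were under the filter. In limma 0 of the 6 passed adjustment and 0 had an unadjusted p below 0.05.

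Genes that work with or under SoxB1 factors went both ways. Of 7 tested, 3 were higher and 4 lower (median -0.71, and -0.29 without mutant 8711), 0 passed adjustment, and at an unadjusted limma p under 0.05 there were 2 higher and 1 lower. Otx2, a head and pigment epithelium homeobox gene, read 2077, 3961 and 6150 in the mutants, against 1650, 1479 and 1306 in the controls, a difference of 1.33 (adjusted p 0.684). Pax6, a partner of Sox2 on lens crystallin enhancers, had a difference of 0.51, Rax, an eye field homeobox gene, -1.20, and Nes, the neural progenitor intermediate filament nestin, -1.51 (-0.63 without mutant 9216). Sox2 was lowest in mutant 9266 (402), and Otx2 was highest there. Among the controls, Sox2 was highest in 9216, but Otx2 was lowest in 9266. Hes5, Pou3f2 and Pou3f3 were under the filter, and Pax6, Rax, Six3 and Hes5 are also in the retinal progenitor list below.

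Of 8 tested neuronal genes of the SoxC list, 7 were lower and 1 higher (median -0.99, and -0.54 without mutant 8711), 0 passed adjustment and 1 was lower at an unadjusted limma p under 0.05. That gene, Atoh7, which starts ganglion cell formation, had 7.1, 7.4 and 16.5 in the mutants, against 48.7, 16.5 and 293 in the controls. The neuronal genes Tubb3, Elavl4 and Pou4f1 had differences of -1.28, -0.90 and -1.08, all at low intensity. Mutant 8711 was the lowest array for Elavl4 and Pou4f1, and without it their differences were -0.54 and -0.55. With the filter raised to the 60th percentile, the median over the genes of this list that were left was 0.16. Dcx, Isl1 and Stmn2 were under the filter. The early neuron markers, which share most of these genes, had 5 of 5 tested genes lower, or 4 of 5 without mutant 8711 or without control 9216. Over all 8 measured genes of that list, the 3 under the filter included, the summed level was 101 to 190.5 in the mutants. In controls 8711, 9216 and 9266 it was 252, 213 and 602, with Atoh7 at 293 in control 9266.

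Of 6 tested cartilage matrix genes that Sox9, Sox5 and Sox6 activate in chondrocytes, 3 were higher and 3 lower (median -0.06, and from -0.23 to 0.12 with 1 array left out). Col9a2, a chain of type IX collagen, had 9.9, 19.0 and 19.2 in the mutants and 78.1, 31.5 and 76.0 in the controls, a difference of -1.79 (adjusted p 0.613) that was the only one at an unadjusted p under 0.05. Hapln1, Col11a1 and Col11a2 had 0.42, -0.19 and 0.23. Most of the summed level of this list (6761 to 9222 in the mutants, 6927 to 8747 in the controls) came from Col9a1, a second type IX collagen chain, at 6278 to 8538 in the mutants and 6504 to 7876 in the controls. Col2a1, the main cartilage collagen, had 158 to 383 in the mutants and 160.4 to 451 in the controls, and Acan, Comp, Matn1 and Col9a3 were under the filter.

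**Figure D4:**
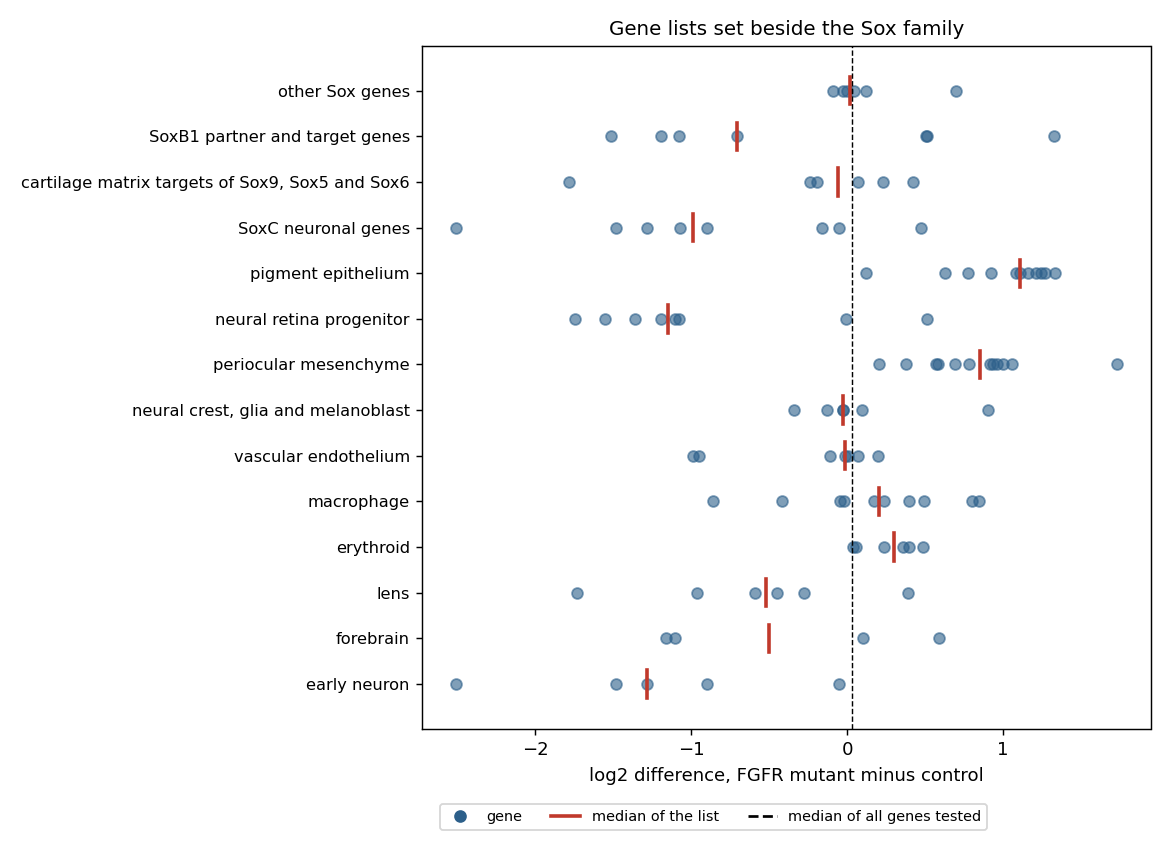
Log2 difference, FGFR mutant minus control, of each tested gene (points) in the gene lists set beside the Sox family, with the median of each list (red) and of all genes tested (dashed, 0.03). All 11 pigment epithelium and all 12 periocular mesenchyme genes lie above 0, and 7 of 8 neural retina progenitor genes lie below it.

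In bulk tissue, fewer cells of a type and less RNA per cell cannot be told apart, so the marker genes of the cell types in which Sox genes are active were read beside the members. Of the 11 pigment epithelium markers tested, 11 were higher, 8 of them at an unadjusted limma p under 0.05 and 0 after adjustment, where 4.4% of all 12282 genes tested were higher at that p and 2.52% lower. The 8 became 5, and 10 of 11 were higher, without control 9266. Their summed level was 19733 to 29850 in the mutants, against 11844 to 13773 in the controls, with only Rpe65 under the filter, and mutant 9266 was the highest array. Of 8 neural retina progenitor markers 7 were lower, 5 at an unadjusted p under 0.05, and 1, Pax6, was higher. Without control 9266 it was 3 at that p and 6 of 8 lower. These markers had sums of 4433 to 5883 in the mutants and 6531 to 9035 in the controls and Hes5 under the filter. Between groups, both the mean of Sox2 and these sums were lower in the mutants. Within groups, Sox2 was highest in control 9216, which had the lowest control sum (6531). It was lowest in mutant 9266, which had the highest mutant sum (5883). The part of cell makeup in the Sox values was not tested.

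Markers of cells outside the Six3 lineage were also read. Of 12 periocular mesenchyme markers 12 were higher (median 0.85), 3 at an unadjusted p under 0.05, but without control 9216, the array with the lowest sum, 10 were higher and 2 lower (median 0.36), and with array weights the median was 0.41. They had sums of 2444 to 2869 in the mutants and 961 to 2035 in the controls and Alx4 under the filter. Of 6 erythroid markers, set beside Sox6, 6 were higher, or 5 of 6 without any 1 of 4 arrays (mutants 9216 and 9266, controls 8711 and 9216). Their median was 0.30, and 0.13 without mutant 8711. Of the embryonic globin genes, Hbb-bh1 was at 0.48, while Hbb-y, the largest part of the sums, was at 0.04 with overlap. The sums were 17072 to 18370 in the mutants, against 13335 to 17828 in the controls, with Hba-a1 under the filter. Macrophage markers had 6 higher and 4 lower, with sums of 2323 to 2754 in the mutants and 1578 to 2120 in the controls. The part of these cells in the Sox6 values was not tested.

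Vascular endothelial markers had 3 higher and 4 lower (0 and 7 without control 9216), with sums of 257 to 482 in the mutants and 337 to 660 in the controls and with Pecam1 and Tie1 under the filter. Neural crest, glia and melanoblast markers had 2 higher and 4 lower, with sums of 258 to 485 in the mutants and 265 to 284 in the controls. Its defining gene Foxd3 was under the filter, and Sox10 had 22.2 to 36.2 in the mutants and 20.3 to 39.5 in the controls. Lens markers, a further site of Sox1 and Sox2, had 1 higher and 5 lower, with sums of 1517 to 3433 in the mutants and 2362 to 3506 in the controls, and Bfsp1, Cryga, Foxe3 and Mip under the filter. Forebrain markers had 2 higher and 2 lower, with sums of 573 to 916 in the mutants, against 1449 to 1561 in the controls, led by Six6, which is also in the retinal list. Dlx1, Dlx2 and Nkx2-1, which define ventral forebrain, were under the filter. No member of any of these lists passed adjustment in limma.

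The genes whose pattern was most like that of Sox2 and Sox9 were found by the root mean square difference between log2 values centred over the 6 arrays. For Sox2 these were Id4, an inhibitor of basic helix-loop-helix factors, Nrg1, a ligand of ErbB receptors, and Kif26a, a kinesin-like protein, at 0.19, 0.20 and 0.20, against a median of 0.85 over the 12281 other genes. Id4 read 96.9, 84.9 and 34.3 in the mutants, against 103.5, 156 and 88.6 in the controls, with mutant 8711 among the controls and mutant 9266 lowest, as for Sox2. For Sox9 they were Tango2, Wipi1, a protein of autophagosome formation, and Grtp1, at 0.05, 0.07 and 0.10, against a median of 0.49. In each of the 3, as in Sox9 1451538_at, the probe set compared, mutant 8711 was the lowest array and mutant 9266 the highest. Sox9 1424950_at was also lowest in mutant 8711 but highest in mutant 9216. All points share the same 6 arrays, and the closeness is given as a description.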

How the data were processed

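The values are the authors' deposited linear intensities, 1 per probe set and array. MAS5 is named in the submitters' processing notes, with no version or settings in the sources used here, and 10 ug of total RNA was labelled, per the labels. The 2% trimmed mean of every array was 150, so the deposited intensities were taken as already scaled. Manufacturer controls (64 of 45101 probe sets) were left out. Values were transformed as log2(value + 1.7), the 10th percentile of all values, which understates differences of dim genes, and probe sets with a mean log2 value under the 40th percentile (4.07) were left out. All 27022 others were fitted together with limma 3.58.1 (lmFit, eBayes with trend and robust, statmod 1.5.0) in R 4.3.3, mutant minus control, with Benjamini-Hochberg adjustment over all of them. Genes in lists stand for their probe set with the highest mean log2 value. Summed levels of a list take in all its measured genes, those under the filter included. Figures were drawn with matplotlib 3.10.9 in Python 3.11.15, and upstream sequences are RefSeq's.

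The Sox genes, the lists and the tests were chosen with earlier results of these data known. Named genes were all members, the tested other Sox genes, up to 4 genes of smallest p in each list, and the 3 most alike genes for Sox2 and Sox9. Fgfr1, Fgfr2, Sox2ot, Six3, Col9a1, Col2a1, Hbb-y, Xist and the genes named as under the filter lie outside that rule and, apart from the targeted genes, were named after their values were seen. Alternatives were other added values, scalings and filters, the array number as a block, array weights, plain eBayes, and leaving out arrays. Each array number occurs once in each group, but the main fit did not take the numbers as pairs. The correlation of deviations of same-numbered arrays was 0.05 for 8711, 0.48 for 9216 and -0.11 for 9266. So few values cannot decide whether the arrays are pairs. With 3 arrays a group, their number limits the precision.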

Additional observations from a re-analysis of the deposited data

How the results depend on the processing

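Member probe sets called numbered 0 in each setting, which says nothing about their stability, since almost no probe set was called without array weights. Over all probe sets 0 were called, except 184 with array weights (none a Sox member), where mutant 8711 had a weight of 0.151, and 1 in each of 2 other settings. That 1 was Xist, with a log2 difference of -6.84 without mutant 8711 (limma adjusted p 0.0166) and -7.33 without both 8711 arrays. On average Xist thus read far lower in mutants 9216 and 9266 than in the controls. A part of sex cannot be told apart from that of genotype in these 2 settings. The sex of the embryos was not tested, nor was the part of sex in the member values. With 1 array left out the number called over all ran from 0 to 1. The count of members lower at an unadjusted p under 0.05 was 3, and it was 5 with no filter, 5 with the array number as a replicate block and 5 with array weights, and ran from 0 (without control 9266) to 4 with 1 array left out, with 1 without control 9216. The higher count was 2 throughout these alternatives. Both counts cover only the 24 members of the main fit, also with no filter. The share over all probe sets is not given for each alternative, so these counts are not to be read against the 2.55% and 3.02% of the main fit. Of the 24 tested members 15 kept their sign in every alternative that gave a value, Sox1, Sox2, Sox3, all Sox11 and the 2 separated Sox6 probe sets among them. Quantile normalization and median centring moved the median difference of all probe sets by 0.08 and 0.11. Under these 2 scalings Sox12 1455562_at read 0.10 and 0.11, Sox6 1427677_a_at 0.15 and 0.071, and Sox9 1451538_at 0.11 and 0.055, all turned from a value just under 0, and Sox6 1427677_a_at was 0.30 with array weights. Without both 8711 arrays Sox4 1433575_at turned to -0.032, Sox4 1419156_at to 0.40, Sox4 1419155_a_at to 0.13, Sox4 1449370_at to 0.21, Sox6 1427677_a_at to 0.44 and Sox9 1451538_at to 0.33. With 1 array left out, the differences that turned sign ran from -2.55 to 0.24 for Sox4 1419156_at, from -1.61 to 0.21 for Sox4 1449370_at, from -0.12 to 0.13 for Sox12 1455562_at, from -0.13 to 0.39 for Sox5 1455535_at, from -0.40 to 0.45 for Sox6 1427677_a_at, from -0.26 to 0.22 for Sox9 1451538_at and from -0.14 to 0.55 for Sox9 1424950_at. Why these turned was not tested beyond the arrays named. At the 60th percentile filter no early neuron gene was left to give a median.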

Other observations

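Noncoding neighbours of members were also on the array. Sox2ot, a long noncoding RNA whose gene overlaps Sox2, read 3.0, 27.4 and 19.7 in the mutants, against 34.9, 31.6 and 18.3 in the controls, with a log2 difference of -1.02 (limma adjusted p 0.852) that was -0.22 without mutant 8711. Its low reading in mutant 8711 stands beside a Sox2 reading of 1312 in the same array. Sox6os, an opposite-strand transcript at Sox6, was under the filter, at 21.3, 1.9 and 16.6 in the mutants and 15.0, 11.4 and 2.3 in the controls.

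A Sox4 probe set under the filter, 1458332_x_at, had 6.1, 8.3 and 8.9 in the mutants, against 0.8, 1.2 and 0.8 in the controls, without overlap, while 1443778_at from the same source sequence had 0.6, 4.2 and 2.8 in the mutants and 12, 1.1 and 0.6 in the controls. Both lie in the range where the arrays were not used for tests.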
